A study of Mus musculus with 12 samples.

Results

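Chromatin accessibility was compared between LPS-treated microglia of 24-month-old and 3-month-old mice, with 2 ATAC-seq libraries at each age. Overlapping peaks of these 4 lists (1 bp or more) were joined, giving 43033 merged regions. A region was called gained with age when both 24-month lists and neither 3-month list held a peak there, and lost when the reverse was true. This gave 102 gained regions (0.237% of all) and 923 lost regions (2.14%), 1025 of 43033 in total, while 30735 regions (71.4%) were called in all 4 lists. The direction is therefore the rule itself, and what follows describes where these regions were, what else was called there, and how far single libraries set them.

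The mice were wild-type C57BL/6J females that received LPS or PBS by intraperitoneal injection, at 3, 14 or 24 months of age, and the series holds 12 libraries, 2 per age and treatment. The study asked how ageing changes the way microglia respond to inflammation. Each library pooled microglia of 2 to 3 mice, so a replicate is a pool of animals. The sources differ on the interval between injection and collection and on whether sorted CD11b+ CD45low cells or nuclei from frozen tissue were used.

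Microglia are the resident macrophages of the brain, and their identity is maintained by PU.1, IRF8 and SMAD factors at distal enhancers. LPS, a component of the outer membrane of gram-negative bacteria, is sensed by Toll-like receptor 4, which activates NF-kB and AP-1 and opens enhancers and promoters of cytokine and chemokine genes. ATAC-seq inserts adapters where DNA is accessible, and a peak marks a stretch where insertions exceed the local background. Accessibility below the calling threshold leaves no call, so the absence of a call is not the absence of access.

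Of 26 genes fixed as markers of homeostatic microglia, 24 had a peak within 1 kb of a transcription start site in each of the 4 lists. Markers of other cells had few. In the 4 lists a promoter peak was present at 0 of 16 neuronal, 0 to 2 of 12 astrocyte, 4 of 13 oligodendrocyte, 3 to 4 of 16 endothelial and mural, 1 to 2 of 16 granulocyte, 1 to 3 of 16 monocyte and border macrophage, and 3 to 4 of 30 lymphocyte genes. Over all protein-coding genes the share was 49.6% to 50.7%. The counts were not equal between ages. Monocyte and border macrophage genes had 1 and 1 at 3 months and 3 and 2 at 24 months, and in PBS 1 and 2 against 4 and 4. Endothelial and mural genes had 3 and 3 against 4 and 3, and in PBS 2 and 2 against 5 and 5. Astrocyte genes had 2 and 0 against 1 and 1, and in PBS 0 and 0 against 2 and 3. Granulocyte genes had 1 and 1 against 2 and 1, and in PBS 1 in each library. Lymphocyte genes had 4 and 3 against 3 and 4, and in PBS 4 in each library.

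The library labelled 24-month LPS replicate 2 stood apart from the other LPS libraries, and each result below is read with this in view. At 14 months, 1120 regions of the 12 merged lists were called in both LPS libraries and neither PBS library. These regions use no 3-month or 24-month library, so they serve as a measure of the LPS response in the others. They were called at 91.2% and 94.9% in the 3-month LPS libraries, at 84.6% in 24-month LPS replicate 1, but at 53.0% in replicate 2. The 3-month PBS libraries called 3.48% and 8.57% of them, and the 24-month PBS libraries 38.0% and 54.4%, so replicate 2 sat within the range of the aged PBS libraries. The 3270 regions called in both PBS and neither LPS library at 14 months were not a mirror image. They placed the 24-month LPS libraries on opposite sides of the 3-month ones, with replicate 1 further away. Replicate 1 called 25.7% of them and replicate 2 64.8%, beside 55.5% and 45.4% in the 3-month LPS libraries. The 24-month PBS libraries called 75.0% and 85.8%. Of all 48244 regions, replicate 1 called 70.2%, replicate 2 75.4% and the 24-month PBS libraries 79.5% and 84.6%. The second 14-month LPS library called 56.4% of all regions, against 73.0% in the first, which enlarges the set of 3270. The cause of the difference between the 24-month LPS replicates was not tested.

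**Figure D1:**
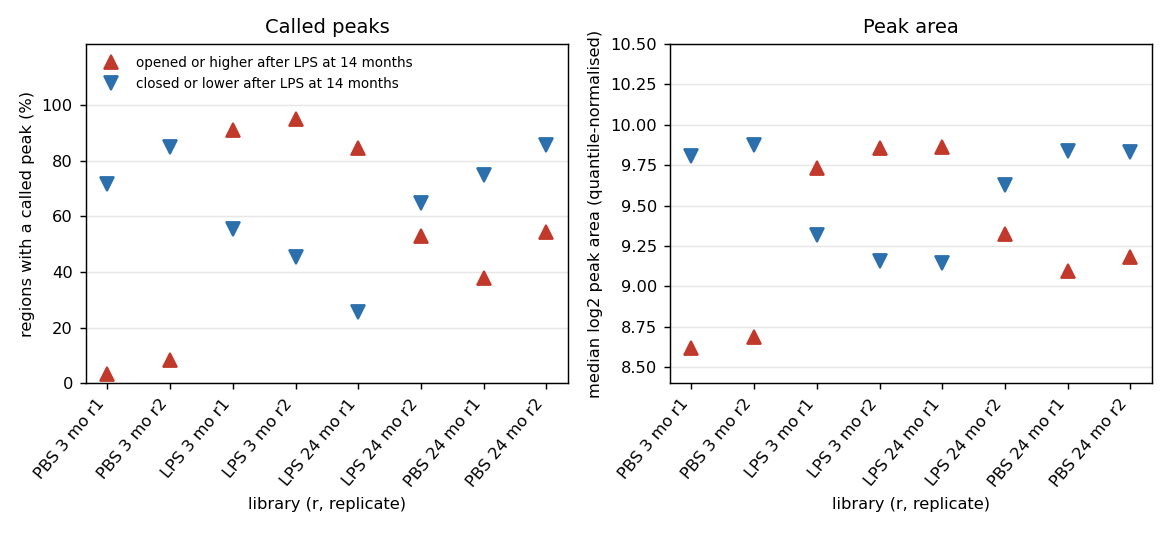
Left, the percentage of regions with a called peak in each 3-month and 24-month library, for the 1120 regions opened (red, upward triangles) and the 3270 regions closed (blue, downward triangles) by LPS at 14 months. Right, the median log2 peak area over the 611 regions higher and the 190 regions lower after LPS at 14 months by over 1. In 24-month LPS replicate 2 the red median was 9.32, between 9.86 in replicate 1 and the 9.10 and 9.18 of the 24-month PBS libraries.

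Sequences around the summit are shown for the regions that the results return to, so that the patterns counted further on can be seen in place. Each is 151 bases of the plus strand of mm10, read from the RefSeq copy of the same assembly. Capitals mark a match to one of the searched patterns on either strand. For the gained regions near Cd300e and Il18r1 the capitals mark a RUNX pattern, for Rxra the PU.1-IRF composite followed by an NF-kB pattern, and for Entpd5 an AP-1 pattern.
Cd300e, gained, chr11:115067026-115067176: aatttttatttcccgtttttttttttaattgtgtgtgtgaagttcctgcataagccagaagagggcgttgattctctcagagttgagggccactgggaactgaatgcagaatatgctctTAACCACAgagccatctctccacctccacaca
Il18r1, gained, chr1:40475788-40475938: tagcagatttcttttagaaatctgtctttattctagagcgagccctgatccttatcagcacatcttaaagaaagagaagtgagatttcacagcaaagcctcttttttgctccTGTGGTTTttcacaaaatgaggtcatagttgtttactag
Rxra, gained, chr2:27732910-27733060: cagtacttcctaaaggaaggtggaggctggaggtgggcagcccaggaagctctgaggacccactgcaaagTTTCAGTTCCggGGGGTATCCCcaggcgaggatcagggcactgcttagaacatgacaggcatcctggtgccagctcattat
Entpd5, gained, chr12:84408163-84408313: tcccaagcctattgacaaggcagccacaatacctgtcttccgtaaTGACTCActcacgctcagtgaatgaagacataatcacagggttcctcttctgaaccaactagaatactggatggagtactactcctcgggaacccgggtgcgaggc

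The lost regions shown are leading ones near Rreb1 and Plekho1 and list members at the promoters of Gbp2 and Ciita, all with an AP-1 pattern, and a distal region near Zfp36l1 with a CTCF pattern. The pair of AP-1 spellings, TGACTCA and TGAGTCA, are reverse complements of each other.
Rreb1, lost, chr13:37784313-37784463: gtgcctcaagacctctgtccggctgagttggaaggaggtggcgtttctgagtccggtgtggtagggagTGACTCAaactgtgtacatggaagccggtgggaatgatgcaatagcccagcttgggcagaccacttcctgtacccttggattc
Plekho1, lost, chr3:96017495-96017645: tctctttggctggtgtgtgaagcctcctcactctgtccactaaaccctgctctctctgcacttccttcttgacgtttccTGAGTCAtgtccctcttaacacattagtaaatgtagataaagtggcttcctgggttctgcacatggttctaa
Gbp2, lost, chr3:142619765-142619915: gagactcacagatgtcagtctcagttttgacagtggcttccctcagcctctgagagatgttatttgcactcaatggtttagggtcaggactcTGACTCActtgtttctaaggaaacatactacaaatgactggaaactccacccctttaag
Ciita, lost, chr16:10489170-10489320: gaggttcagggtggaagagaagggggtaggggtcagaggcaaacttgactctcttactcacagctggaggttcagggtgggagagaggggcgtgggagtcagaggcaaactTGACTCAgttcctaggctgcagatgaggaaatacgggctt
Zfp36l1, lost, chr12:80141594-80141744: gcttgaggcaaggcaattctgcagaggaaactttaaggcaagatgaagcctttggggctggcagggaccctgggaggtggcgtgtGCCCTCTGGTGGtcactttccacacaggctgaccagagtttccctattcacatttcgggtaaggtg

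Lost regions outnumbered gained regions in the lists as deposited, but the lists were not of equal length. The 3-month LPS lists held 39433 and 38531 peaks and the 24-month LPS lists 35139 and 37160. When each list was cut to the length of the shortest by peak area, 296 regions were gained and 357 lost. At equal length replicate 1 alone gave 1623 gained and 1599 lost regions and replicate 2 alone 2003 and 1545, so the excess of lost regions was not kept for either replicate alone. Peak area is the caller's score for a peak, the significance summed over its length, and its lowest value in these lists was 200. With 2 libraries against 2, an exact permutation test of any single region cannot give a p below 1 in 3, so no region was tested by its calls.

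Calls that differed between replicates were more frequent than calls that differed between ages in both replicates. Exactly 1 of the 24-month lists called 8334 regions (19.4%) and exactly 1 of the 3-month lists 5305 (12.3%), compared with the 2.38% that were gained or lost. Taken alone against both 3-month lists, 24-month replicate 1 gave 795 gained and 3426 lost regions, and replicate 2 gave 1518 gained and 2279 lost. Of the regions gained by replicate 1 alone, 12.8% were gained in both replicates, and of those gained by replicate 2 alone, 6.72%. The corresponding shares of lost regions were 26.9% and 40.5%. Leaving out a 3-month library in turn gave 325 gained and 2379 lost regions against replicate 1, and 422 and 1863 against replicate 2.

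**Figure D2:**
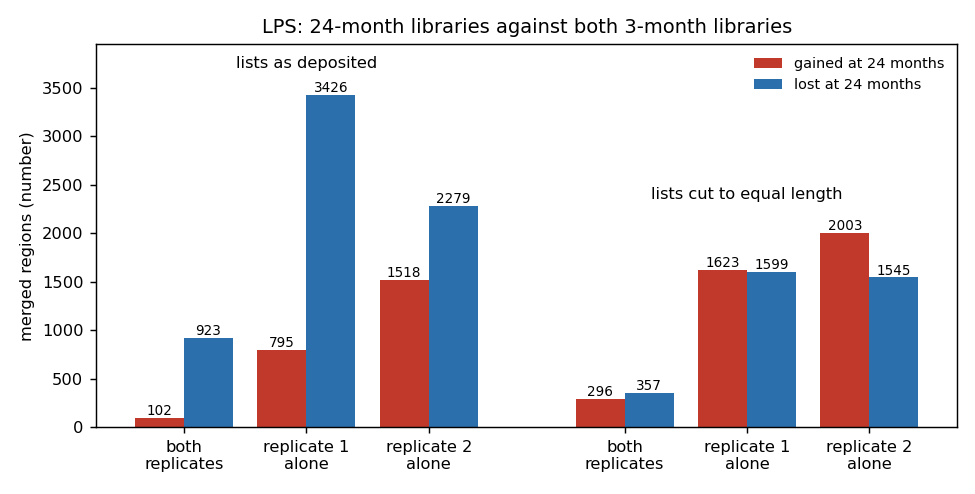
Bars give the number of merged regions gained (red) or lost (blue) at 24 months against both 3-month LPS libraries, for both 24-month replicates together and for each alone, with the lists as deposited (left) and cut to equal length (right). Requiring both replicates left 102 and 923 regions, and lists of equal length gave 296 and 357.

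What each 24-month library added on its own differed in kind. The 693 regions gained in replicate 1 only were rarely called in 3-month PBS libraries (8.08% and 13.9%), and 48.8% were called in no 3-month or 24-month PBS library. The 1416 regions gained in replicate 2 only were called in 44.8% and 62.5% of cases in the 3-month PBS libraries, and 16.9% were called in no PBS library. The regions lost in 1 replicate only showed the reverse: the 2503 lost in replicate 1 only were called at 72.8% and 83.3% in 3-month PBS, and the 1356 lost in replicate 2 only at 16.1% and 25.4%. Over all regions the 3-month PBS libraries called 77.9% and 82.7%, and 7.02% were called in no PBS library of these ages. The regions lost in replicate 1 only thus stood near the share of all regions, and the other 1-replicate sets lay below it. Regions gained in replicate 2 only were called in 3-month PBS more often than those gained in replicate 1 only. The AP-1 pattern, present in 10.3% of all regions, was counted in the larger sets that each replicate gave alone. Those sets include the regions gained or lost in both replicates, and the AP-1 share differed between them. AP-1 was present in 20.4% of regions gained by replicate 1 alone and in 21.1% of regions lost by replicate 2 alone. The shares were 4.22% of those gained by replicate 2 alone and 7.47% of those lost by replicate 1 alone.

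Gained and lost regions lay near the bottom of the lists that called them. The within-list percentile ranks the peaks of a library from the smallest area at 0 to the largest at 100. Gained regions had a median percentile of 6.27 and 7.48 in the 24-month libraries, and lost regions 9.55 and 8.69 in the 3-month libraries, beside 50.5 and 50.2, and 50.3 and 50.4, over all regions called there. The highest percentiles reached were 38.7 and 40.5 for gained and 38.1 and 41.5 for lost regions. In 59 of 102 gained (57.8%) and 403 of 923 lost regions (43.7%), the smaller peak area was within 10% of the lowest value. Just outside the rule stood 2109 regions called in 1 24-month list and no 3-month list, with a median area of 233, and 2396 called in 1 3-month list and no 24-month list, with a median area of 225. A further 3859 regions were called in both 3-month lists and 1 24-month list (median area 293), and 543 in both 24-month lists and 1 3-month list (273).

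Among the 12 leading gained regions, those with the highest mean percentile and a protein-coding start site within 100 kb, the first lay near Cd300e. The region at chr11:115066439-115067187, 4.92 kb from the start of Cd300e, an activating receptor of myeloid cells, had percentiles of 28.4 and 40.5 in the 24-month LPS libraries. In PBS it was at 63.7 and 55.7 at 24 months, at 11.9 in 1 of the 3-month libraries and not called in the other, and no 14-month library called it. A region 32.3 kb from Flt1, which encodes a receptor for vascular endothelial growth factor, was at 32.0 and 23.5 after LPS and at 32.9 and 27.8 in 24-month PBS, with no peak in 3-month PBS. A region within Il18r1, which encodes a subunit of the interleukin-18 receptor, was at 12.9 and 26.5. It was also called in all 4 PBS libraries of these ages, at 13.2 and 33.0 in 3-month and 42.9 and 27.8 in 24-month PBS. Both 24-month libraries of each treatment held a peak at Cd300e and Flt1, above the middle of the list only for Cd300e in PBS. At Il18r1 the 3-month LPS libraries were the only ones of these ages without a peak.

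Both genes for retinoid X receptors among the leading genes, which encode nuclear receptors that pair with lipid-sensing receptors, showed unequal replicates. The promoter region of Rxrg was at 38.7 in 24-month LPS replicate 1 and at 4.90 in replicate 2, and at 56.5 and 64.1 in 24-month PBS, with no peak in 3-month PBS. A region in the first intron of Rxra was at 4.08 and 29.3 after LPS, and at 40.1 and 38.6 in 3-month PBS. The promoter region of Foxp1, a forkhead transcription factor, was at 29.7 and 4.71 after LPS and was called in 1 of the 4 PBS libraries, at 32.8. Slc16a10, an aromatic amino acid transporter, had a first-intron region at 17.5 and 17.3, the most even pair among these. The other leading gained regions lay near Pde2a, Fam129a, Rbm38, Nrg2 and Cask, with mean percentiles that fell between those of Flt1 and Rxra. When the lowest 25% of peaks in each list were left out, 1 of the 12 leading gained regions stayed gained, since the smaller of the pair of peaks was often among those removed.

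The 12 leading lost regions were more even between replicates and several were called in LPS libraries only. At the promoter of Synpo, which encodes an actin-associated protein, the percentiles were 30.1 and 41.5 in 3-month LPS and 50.2 and 42.6 in 14-month LPS, and none of the 6 PBS libraries called the region. A region in an intron of Rreb1, a zinc finger transcription factor downstream of RAS, was at 28.2 and 35.7 in 3-month LPS and at 28.0 and 6.67 in 14-month LPS, again with no call in PBS. The leading region of Etv6, an ETS-family repressor, followed the same order, at 30.9 and 32.1 in 3-month and 38.9 and 10.6 in 14-month LPS with no PBS call. Plekho1, which encodes a pleckstrin homology domain protein, had an intronic region at 36.7 and 25.0 in 3-month LPS and 52.0 and 26.9 in 14-month LPS, and 1 24-month PBS library called it at 8.81. These 4 regions were thus called in every LPS library outside the 24-month group.

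Some other leading lost regions were also called in PBS libraries. Pkp4, a plakophilin of cell junctions, had a promoter region at 34.4 and 34.0 in 3-month LPS that was also called in all 4 PBS libraries of the same ages, at 14.0 and 26.3 in 3-month and 6.43 and 39.6 in 24-month PBS. The region at Mgat4a, which encodes an enzyme that branches N-glycans, was called in every library except those of 24-month LPS. A region at Smarcc2, a subunit of the BAF chromatin remodelling complex, was at 36.6 and 22.0 in 3-month LPS and called in no other library. The remaining leading lost regions lay near Wwc2, which no PBS library called, and near St5, Lep, Klhl25 and Lypla2, each with a PBS call. With the lowest 25% of peaks left out, 11 of the 12 leading lost regions stayed lost.

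**Figure D3:**
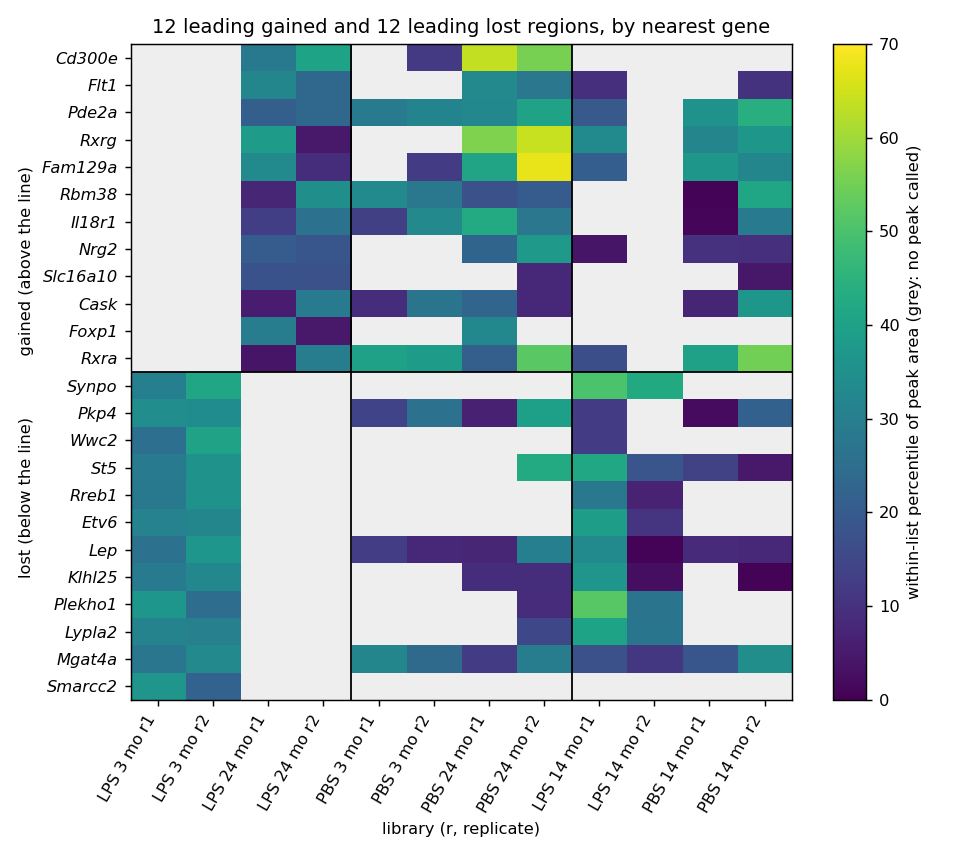
Colour gives the within-list percentile of peak area in each of the 12 libraries for the 12 leading gained regions (above the line) and the 12 leading lost regions (below), labelled by the nearest protein-coding gene. Grey means no called peak. Synpo, Rreb1 and Etv6 are coloured in 3-month and 14-month LPS libraries and grey in all PBS libraries, and Cd300e is brightest in 24-month PBS.

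The 8 libraries that did not define the regions give values independent of the rule. Gained regions were called at 87.3% and 90.2% in 24-month PBS and at 43.1% and 65.7% in 3-month PBS. Lost regions were called at 28.7% and 42.0% in 3-month PBS and at 43.6% and 54.9% in 24-month PBS, so their order in PBS was not that of LPS. Over all 43033 regions the shares were 77.9% and 82.7% in 3-month and 85.8% and 88.9% in 24-month PBS. Because members are weak peaks, the 2366 regions called in 1 LPS list of each age are a nearer measure. They were called at 42.8% and 54.7% in 3-month PBS and at 60.8% and 70.0% in 24-month PBS.

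Of the 102 gained regions, 19 (18.6%) met the same rule in PBS, called in both 24-month and neither 3-month PBS library, whereas 4.8% of all regions did. None was lost in PBS. With replicate 1 alone 175 and with replicate 2 alone 114 regions were gained in both treatments. Beside Flt1 and Rxrg, the 19 included the promoter of Clec12a, an inhibitory C-type lectin receptor of myeloid cells, at 27.2 and 3.30 in 24-month LPS and 20.2 and 6.53 in 24-month PBS. They also included the promoter of Entpd5, a nucleotide phosphatase of the endoplasmic reticulum, which was far higher in PBS (77.7 and 79.4) than in LPS (19.7 and 10.1). A larger set of 41 gained regions (40.2%, beside 73.4% of all) was called in all 4 PBS libraries, as at Il18r1 and Rxra, and 4 were called in none.

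Of the 923 lost regions, 24 (2.60%) were also lost in PBS, beside 0.681% of all regions. They included intergenic or intronic regions near Rgs1, a regulator of G-protein signalling (14.2 and 12.3 in 3-month LPS), and Cxcr5, a chemokine receptor (8.68 and 12.9). A larger number, 80 regions (8.67%, against the 4.8% of all regions), was lost after LPS and gained in PBS. Near Cebpb, a transcription factor of the acute inflammatory response, such a region was at 17.4 and 18.9 in 3-month LPS and at 15.7 and 8.54 in 24-month PBS, without a peak in 24-month LPS or 3-month PBS. The promoter of Tlr2, a Toll-like receptor for bacterial lipoproteins, gave the same pattern at 2.25 and 5.76 in 3-month LPS and 10.7 and 12.8 in 24-month PBS. When the lists were cut to equal length, 14 regions showed this opposite pattern, and with 24-month LPS replicate 1 or 2 alone 167 and 439 did. In 474 lost regions (51.4%, beside 15.6% of all) no 3-month PBS library held a peak, and in 266 (28.8%, beside 7.02%) no PBS library of either age did. The shares of all regions given for gained and lost regions here include many stronger peaks. The 2366 regions called in 1 LPS list of each age were called at 42.8% and 54.7% in 3-month PBS. Weak peaks thus often lacked a PBS call, and these contrasts are not particular to LPS by that measure alone.

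In the 14-month libraries, 34 gained regions (33.3%, beside 6.16% of all) were called in both PBS and neither LPS library, and 1 showed the reverse. Among lost regions 61 (6.61%, beside 2.60%) were called in both LPS and neither PBS library at 14 months and 109 (11.8%) in both PBS and neither LPS library. The second 14-month LPS library has a short list that called 63.7% of all regions, against 81.3% in the first, which raises every share of regions without a 14-month LPS call. Of the 2366 regions called in 1 LPS list of each age, the 14-month LPS libraries called 37.2% and 5.66%, and the 14-month PBS libraries 42.8% and 63.4%.

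**Figure D4:**
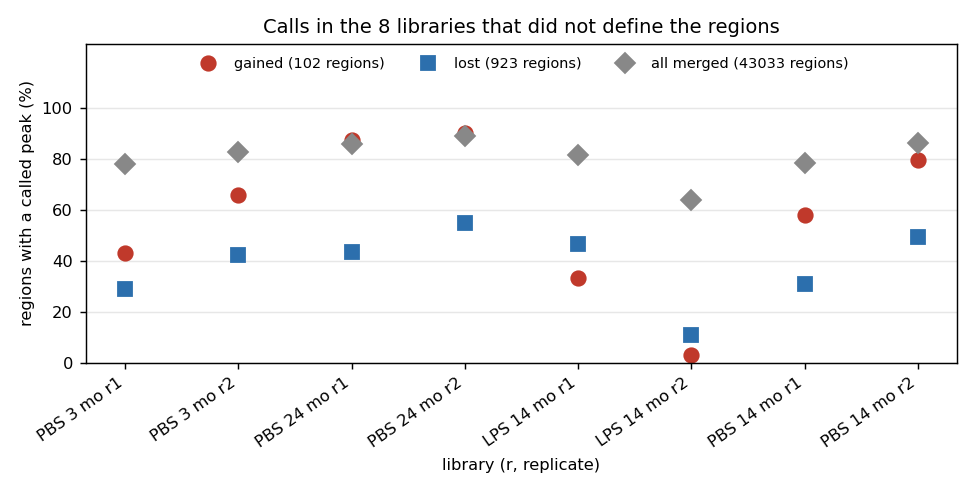
Points give the percentage of regions with a called peak in each PBS and 14-month library for gained (red circles), lost (blue squares) and all merged regions (grey diamonds). Gained regions sit at 87.3% and 90.2% in 24-month PBS, next to all regions, and lost regions lie below 55% in every library shown.

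Smaller shares of both classes than of all regions lay at promoters. Within 1 kb of a start site were 19 gained regions (18.6%, 95% exact binomial interval 11.6 to 27.6, covering counting error only) and 117 lost regions (12.7%, 10.6 to 15.0), beside 31.3% of all regions and 14.4% of the regions called in 1 list of each age. Intergenic shares were 30.4% and 31.9%, beside 24.7%. First introns held 18.6% and 21.2%, beside 17.7%, and other introns 29.4% and 28.5%, beside 22.4%. The regions were narrow, with a median width of 278 bp for gained and 242 bp for lost regions against 416 bp for all.

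Both strands of a window of 150 bp to either side of the summit were searched for sequence patterns. The PU.1-IRF composite, GGAA and 2 bases of any kind before GAAA, the form bound by PU.1 with IRF4 or IRF8, was present in 15 gained regions (14.7%, interval 8.47 to 23.1), in 4.88% of lost regions (3.58 to 6.47) and in 6.20% of all regions. It can overlap matches to the separate PU.1 and IRF patterns. The Rxra sequence above holds it on the minus strand. Outside promoters the shares were 18.1% of gained, 4.71% of lost and 7.47% of all regions. The PU.1 pattern GAGGAAGT was in 13.7%, 7.91% and 11.1%, and the RUNX pattern, TGTGGTT followed by A or T, in 7.84%, 3.90% and 4.19%. The composite share moved with the library, between 7.42% and 14.7% of gained regions over the settings tried.

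A larger share of lost regions than of all regions carried the pattern of the insulator protein CTCF. It was found in 84 lost regions (9.10%, interval 7.32 to 11.1), in 3.92% of gained regions, in 4.53% of all regions and in 5.28% of the regions called in 1 list of each age. Under the other settings the share in lost regions lay between 5.57%, with 24-month replicate 2 alone, and 9.10%. AP-1 was in 5.88% of gained, 11.8% of lost and 10.3% of all regions, and NF-kB in 4.90%, 5.09% and 6.31%. For AP-1 and NF-kB the share in all regions lay within the intervals of both classes. A match describes the letters in the window and does not show that a factor was bound.

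**Figure D5:**
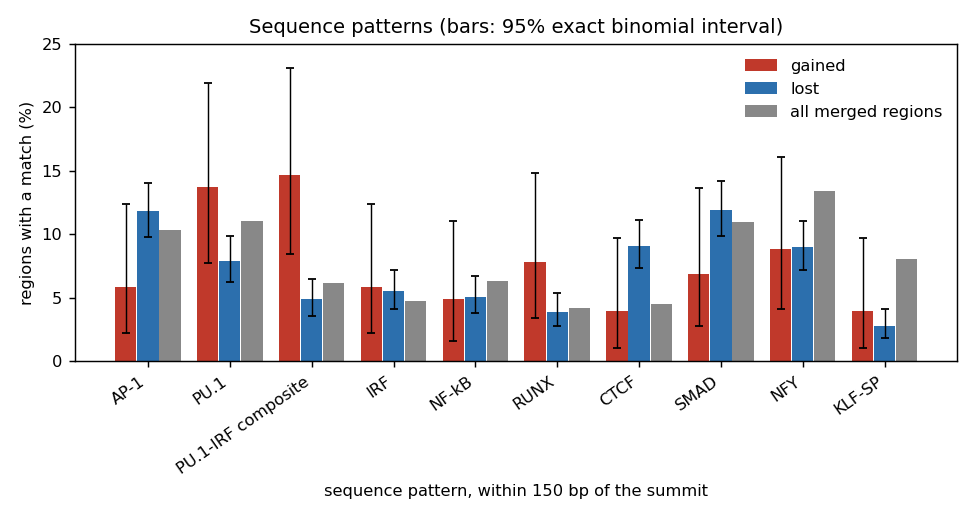
Bars give the percentage of gained (red), lost (blue) and all merged regions (grey) with a match within 150 bp of the summit for 10 of the 20 patterns searched, with 95% exact binomial intervals for gained and lost regions. The PU.1-IRF composite stands at 14.7% in gained regions beside 6.20% of all, and CTCF at 9.10% in lost regions beside 4.53%.

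The lost regions had 866 nearest genes and the gained regions 101, with 11 genes in both. No gene had more than 3 members. Etv6 had 3 lost regions among its 37, Pik3r1, a regulatory subunit of phosphoinositide 3-kinase, 3 among 26, and Bin1, which shapes membranes in endocytosis, 3 among 19. Across 22 lists of genes, 45 of 2753 regions were lost (1.63%) and 5 gained (0.182%), which is close to the 2.14% and 0.237% of all regions.

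Genes of the LPS response were not singled out by their calls. Of 264 regions nearest to 44 inflammatory NF-kB targets, 5 were lost (1.89%) and none gained, and 178 (67.4%) were called in all 4 lists. The 5 lay near Nfkb1, which encodes the p105 precursor of the p50 subunit (7.91 and 7.21 in 3-month LPS), Cxcl2, a neutrophil chemokine (0.931 and 2.11), Tnfaip3, which encodes the inhibitor A20 (13.9 and 5.36), Ccl12, a monocyte chemokine (11.8 and 11.3), and Socs3, an inhibitor of cytokine signalling (12.7 and 7.36). All 5 were at or below the 14th percentile, and the regions at Nfkb1, Cxcl2 and Socs3 were called in no PBS library of these ages. Toll-like receptor 4 signalling had 2 lost of 136 regions (1.47%), at Tab2 and Map3k7, kinase-complex components downstream of the receptor. Negative feedback on inflammation had 6 of 305 (1.97%), including the promoters of Cd200r1, the receptor through which neurons restrain microglia (7.41 and 10.3), and Tsc22d3, which encodes the glucocorticoid-induced protein GILZ (6.66 and 6.08).

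Interferon and antigen presentation genes included promoter regions that were absent from PBS. At Gbp2, an interferon-induced GTPase, the lost region at chr3:142619703-142619946 was at 15.8 and 19.9 in 3-month LPS and was not called in any PBS library of these ages. At Ciita, the master regulator of MHC class II genes, the region at chr16:10489122-10489393 was at 14.3 and 20.9, and at Cd74, the invariant chain of MHC class II, at 3.54 and 14.2, both without a call in 3-month or 24-month PBS. These made 2 lost of 105 interferon regions (1.90%) and 2 of 81 antigen presentation regions (2.47%).

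Regulators of transcription had the largest counts. Of 515 regions nearest to 35 myeloid transcription factors, 13 were lost (2.52%) and none gained. Apart from Etv6 and Cebpb these lay near Klf4 (19.2 and 25.8), Runx1 (14.0 and 11.6), Smad7 (19.8 and 27.3), Smad3, Stat6, Ets2, Mef2d, Maf and Bhlhe41. Immediate early and AP-1 genes had 7 of 345 (2.03%), led by Egr1 (26.7 and 27.1), Klf6 (16.4 and 27.6) and Klf4, with Zfp36l1, Fosb, Fosl2 and Myc below. Both shares stood near the 2.14% of all regions.

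The share of regions lost was 1.26% for homeostatic genes, beside the 2.14% of all regions. Of 238 regions, 169 (71.0%) were called in all 4 lists and 3 were lost, near Tmem119 (10.1 and 19.9), Smad3 (4.83 and 11.8) and Csf1r (8.91 and 10.4), and none gained. Disease-associated microglia genes lost 1 of 123 (Gpnmb), phagocytosis and lysosome genes 1 of 235 (Marco), and senescence genes none of 102. Lipid handling genes lost 2 of 166 (Pla2g4a and Plin2) and gained 1 (Rxra), and iron handling genes gained 1 of 56 (Cd163). The lists of age-raised and age-lowered microglial genes that the study defined lost 1 of 166 (Tpd52) and 2 of 118 (Tmem63a and Socs3), and the second gained 1 (St3gal6). Among markers of other cells, those of monocytes and border macrophages gained 2 of 40 regions (Cd163 and Clec12a) and lost 1 (Plac8), lymphocytes lost 1 of 41 (Cd247, whose region lay at the start of another gene), oligodendrocytes lost 1 of 31 (Cnp) and endothelial cells gained 1 of 37 (Flt1). Granulocyte (22), astrocyte (30) and neuronal (19) regions had no member. Over all regions 2.14% were lost and 0.237% gained, and with counts of 0 to 3 no list was called different from these shares. The part that such cells had in these calls was not tested.

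Peak area was then compared in the 24396 regions called in all 12 libraries, where gained and lost regions cannot occur. Areas were put on a log2 scale, quantile-normalised and fitted with limma, so that all values below are log2 areas or their differences. After LPS no region differed between 24 and 3 months at an adjusted p under 0.05 (0% higher and 0% lower, smallest adjusted p = 0.95), with 498 higher and 412 lower at an unadjusted p under 0.05. The median size of the difference was 0.08, below the median difference of 0.16 between the 24-month replicates and of 0.10 between the 3-month replicates. Only 2 regions differed by more than 1. In simulated data of the same size, limma recovered 77 of 100 regions with a log2 change of 1 and 32 of 100 with a change of 0.5. Changes of either size could thus be missed. The simulated noise was drawn separately for each region and library. It held no departure of a whole library such as that of 24-month LPS replicate 2, so recovery in the real data may differ.

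The regions with the smallest p are given as values. An intronic region of Ext1, an enzyme of heparan sulfate synthesis, was at 7.97 and 8.54 in 3-month LPS and at 9.43 and 9.29 in 24-month LPS, a difference of 1.11 (SE 0.18, limma adjusted p = 0.95). In PBS the same region was at 9.32 and 9.48 at 3 months and at 9.84 and 9.69 at 24 months. At the promoter of Tifab, an inhibitor of TRAF6 signalling, the areas were 8.78 and 9.01 against 9.71 and 9.61, a difference of 0.77 (SE 0.13, limma adjusted p = 0.95). Both regions were lower in 3-month LPS than in any PBS library of these ages, and the 24-month LPS libraries lay nearer to PBS. Regions near Marcks (0.70), Clec9a (0.68) and Ttc28 (0.55) followed. Among lower values, the promoter of Ifitm6, a member of the interferon-induced transmembrane family, was at 10.57 and 10.72 in 3-month LPS and at 10.33 and 10.13 in 24-month LPS, a difference of -0.42 (SE 0.10). Its PBS values were 9.70 and 9.59 at 3 months and 9.95 and 9.89 at 24 months. Regions near Upk2 (-0.53), Oaf (-0.41), Ildr1 (-0.33) and Ubxn4 (-0.26) made up the rest. In all 10 regions the 24-month and 3-month LPS values did not overlap, and none passed the adjustment.

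By gene list, 49 of 137 regions of inflammatory NF-kB targets had a higher mean area at 24 months, with a median difference of -0.05, against 12224 of 24396 and a median of 0.00 over all regions tested. For interferon genes it was 22 of 64 with a median of -0.07, for homeostatic genes 83 of 141 with a median of 0.03, and for lipid handling genes 61 of 99 with 0.03. The second 24-month library was the lowest of the 4 LPS libraries for the NF-kB list and the highest for the homeostatic list. The NF-kB list had median areas of 10.1 and 10.2 in 3-month LPS, 10.3 in 24-month replicate 1 and 9.80 in replicate 2, the last below the 9.82 and 9.89 of 24-month PBS. The homeostatic list was at 9.56 and 9.55 in 3-month LPS, 9.52 in replicate 1 and 9.80 in replicate 2. An intergenic region nearest to Il1a, which encodes interleukin-1 alpha, was at 10.04 and 10.43 in 3-month LPS, 10.25 in 24-month replicate 1 and 9.11 in replicate 2, and at 9.33 and 9.54 in 24-month PBS. The promoter of Tnf was at 11.05 and 11.31, at 11.25 and at 10.62, and a distal region of Socs3 at 12.87 and 12.87, at 12.81 and at 12.75. Replicate 2 was thus the lowest LPS library of these ages at all 3, by a small margin at Socs3. None of these regions passed the test, and PBS areas at Tnf were 10.14 and 10.30 at 3 months but 11.20 and 11.09 at 24 months.

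Leaving out single libraries set the number of calls. Without 24-month LPS replicate 1, so that replicate 2 stood alone and was assumed to vary like the other groups, 27 regions were higher and 44 lower at 24 months. These regions were called on the departure of replicate 2 itself, so its values there are a description. The following 4 were chosen after their values were seen. The promoter of Il27, an interleukin of the IL-12 family, was at 9.93 and 10.01 in 3-month LPS, 9.79 in replicate 1 and 8.83 in replicate 2, with 9.13 and 9.13 in 3-month PBS. The promoter of Fas, the death receptor, was at 10.43 and 10.38, at 10.44 and at 9.53, with 9.03 and 9.27 in 3-month PBS. The promoter of Siglech, a homeostatic lectin of microglia, was at 9.49 and 9.55, at 9.46 and at 10.25, with 10.61 and 10.62 in 3-month PBS. The promoter of Mertk, a receptor for the clearance of dying cells, was at 11.04 and 11.14, at 10.85 and at 11.51, with 11.58 and 11.68 in 3-month PBS. At these 4 promoters replicate 2 lay on the PBS side of both 3-month LPS libraries, and replicate 1 differed less from those libraries. Without replicate 2, the region that stood out lay in the first intron of Kdm6b, an H3K27 demethylase induced by LPS. That region was at 13.35 and 13.27 in 3-month LPS and 13.86 in replicate 1 (difference 0.54, SE 0.06). Replicate 2 was at 13.08 there, below both 3-month LPS libraries.

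Whether the age difference after LPS differed from that in PBS was tested as an interaction in the same limma fit, which gave 1 region above (0.0041%) and 49 regions below (0.201%) at an adjusted p under 0.05. Of these 50 regions, 39 (78%) shared a peak of some library with a neighbouring region, beside 680 of 24396 tested (2.79%), and the area of such a peak counts in both. With the peaks of all 12 lists merged, or with such regions left out, 0 regions lay above and 1 below. Among the 11 regions without a shared peak, of which 2 are described after their values were seen, an intronic region of Myo1e, a class I myosin of phagocytic cups, was at 11.10 and 11.20 in 3-month LPS and 11.03 and 10.75 in 24-month LPS, but at 8.57 and 8.51 in 3-month PBS and 9.80 and 9.68 in 24-month PBS (interaction -1.46, limma adjusted p = 0.00084). It was the only region of the 11 past the threshold with the joined regions left out. An intronic region of Bhlhe40, a basic helix-loop-helix transcription factor, was at 8.14 and 7.73 in 3-month PBS and 11.33 and 11.40 in 24-month PBS, while the LPS libraries ranged from 9.76 to 11.56 with replicate 2 lowest (interaction -3.69, limma adjusted p = 0.033). In 10 of these 11 regions both aged PBS libraries were higher than both young ones and the LPS difference was between -0.43 and -0.15. In the other the aged PBS libraries were lower.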

How the data were processed

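ATAC-seq libraries of LPS-treated and PBS-treated microglia were grouped by the age, treatment and replicate number in their titles. The authors trimmed reads with cutadapt 2.8, aligned them to mm10 with Bowtie2 2.4.1, processed them with SAMtools, and called peaks per library with Genrich, whose version is not stated in the sources read here. In the deposited lists the peak area is a score without normalization between libraries, and the summit significance is a −log10 p, deposited without adjustment. No read counts were used, so depth is unknown and no count test was possible. A longer list can reflect depth or signal quality as well as accessibility. DNA of chromosomes 1 to 19, X and Y was kept.

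Regions were assigned to the nearest protein-coding start site in the GENCODE basic annotation of mm10, and coordinates count from 1. Named regions were the 12 gained and 12 lost regions with the highest mean percentile within 100 kb of a start site, list members, regions shared with or opposite to PBS, and the 5 smallest area p-values each way. Others were chosen after their values were seen. The members and gene lists were chosen with earlier results of these data known. Log2 peak area (summed per region and library, quantile-normalised) was fitted with limma 3.58.1 in R 4.3.3 over 6 group means and 12 libraries, with the Benjamini-Hochberg adjustment at 0.05, and tested on simulated data. Python 3.11.15 with pandas 2.3.3, scipy 1.17.1 and pysam 0.24.0 did the rest. Replicate numbers were not treated as pairs, since nothing ties same-numbered pools together. P-values measure the spread between pools. Some listed genes are not reported here by name.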

Additional observations from a re-analysis of the deposited data

Results flagged for a closer look

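A total of 49 regions had an age difference in peak area after LPS that lay below that after PBS, and 1 region had a difference that lay above it, by a test of the difference itself (limma interaction term, adjusted p under 0.05). Of these 50 regions, 39 shared a peak with a neighbouring region. With the peaks of all 12 lists merged, or with such regions left out, 0 regions lay above and 1 below, so that 10 of the 11 regions without a shared peak were not called in the latter either. A further 80 regions were lost with age after LPS and gained with age after PBS, with both libraries of a treatment moving one way and both of the other the opposite way. That difference was not tested. In lists of equal length it held for 14 regions. No group of libraries was large enough for a search for single outlying samples.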

How the results depend on the processing

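The age differences of the 10 named peak areas kept their sign in every setting run, with 12 merged lists not run for them since their regions differ. The median difference over all regions, 0.00 on the log2 scale, was -1.98 percentile points with within-list percentiles. With lists of equal length there were 296 gained and 357 lost regions (1623 and 1599 with 24-month replicate 1 alone, 2003 and 1545 with replicate 2 alone, so that the excess of lost regions turned), of which 31 were also gained in PBS, 14 lost but gained in PBS, and 8 gained but lost in PBS. Windows around summits gave 159 gained regions, and a cover of 50% of the region gave 163. Leaving out 1 library at a time gave 325 to 1518 gained and 1863 to 3426 lost regions, of which 47 to 175 were also gained in PBS, 27 to 79 also lost in PBS, 167 to 439 lost but gained in PBS, and 0 to 85 gained but lost in PBS. For peak area after LPS, within-list percentiles gave 1 region higher (Cd82), and leaving out 1 library gave 0 to 27 higher and 0 to 44 lower. For the interaction, 0 regions lay above with percentiles, with the largest peak per region, with 12 lists merged and with joined regions left out. Percentiles gave 12 below, 12 merged lists 1, and joined regions left out 1, the last 2 chosen after seeing the data. Leaving out 1 library gave 0 to 796 above and 29 to 1079 below, the highest without 24-month LPS replicate 1. With the replicate number as a block, the age fit gave 0 regions either way and the interaction 0 above and 40 below. Deviations of same-numbered 3-month and 24-month LPS libraries correlated at -0.28, so crossed numbers were also tried after seeing the data, with 0 regions either way (459 and 584 at an unadjusted p under 0.05).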
